A study of Mus musculus with 10 samples.

Results

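The genes described here are 40 genes of the Nodal, BMP and TGF-β pathway, taken by name from a list, with no threshold on any measured value: 14 ligands, 5 secreted antagonists, 9 receptors, 8 Smads and 4 Id genes. All 40 symbols were found among the 21938 protein-coding genes that GENCODE M21 annotates on chromosomes 1 to 19, X and Y of mm10, the build of both peak lists. The values came from F123, a hybrid mouse embryonic stem cell (mESC) line whose parents were a castaneus and an S129/SvJae mouse, cultured with LIF. Irradiated CF1 mouse embryonic fibroblasts served as feeders, and 1 passage without them preceded the harvest. H3K4me3, the histone mark of gene starts, was mapped by ChIP-seq in 2 replicates of 2000000 cells, and open chromatin by ATAC-seq in 2 replicates of 100000 cells. There was a single culture condition. For each assay a single list of peaks stood for both replicates, so no value below has a spread between replicates, no test between groups of genes was possible, and the comparisons are counts and medians set beside those of all protein-coding genes. The lists carry no read counts, so the depth is unknown. PLAC-seq libraries and ChIP-seq inputs of the series were not used here.

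In this pathway a secreted ligand joins type I and type II receptor kinases, which phosphorylate receptor-regulated Smads. These bind the common partner Smad4, enter the nucleus and act on target genes, of which the Id genes are the classical targets of BMP signals. Nodal, activins and TGF-β signal through Smad2 and Smad3, while BMPs signal through Smad1, Smad5 and Smad9. BMP4 together with LIF holds mESC in self-renewal, and Nodal with its inhibitors Lefty1 and Lefty2 is active in the early embryo.

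The H3K4me3 list held 33487 peaks with a median width of 1135 bp, and the ATAC-seq list held 179109 peaks with a median width of 261 bp. Of 10 marker genes of embryonic stem cells, 9 had an H3K4me3 peak within 2 Kb of the start and 10 an ATAC-seq peak. The exception was Esrrb. Their median fold enrichment was 26.5, from 9.74 at Dppa5a to 45.2 at Lin28a, with 35.1 at Pou5f1, 42.9 at Sox2 and 14.9 at Nanog. Of 10 fibroblast markers, 6 had an H3K4me3 peak, with a median fold enrichment of 14.7 and a highest value of 20.4 at Col1a2. An ATAC-seq peak was present at 8 of them. Col3a1, Postn, Lum and Fap were the fibroblast markers without an H3K4me3 peak. All 6 primitive endoderm markers had an H3K4me3 peak, with a median fold enrichment of 19.7, and 5 had an ATAC-seq peak. The part of such cells in the results below was not tested.

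Nearly all of the pathway genes had a marked and open start. An H3K4me3 peak lay within 2 Kb of the start in 39 of the 40 genes, where 66.4% of all protein-coding genes had one, and an ATAC-seq peak in 40 of the 40, where the share over all genes was 74.6%. Both kinds were present at 39 genes (65.9% of all genes), and 0 of the 40 lacked both (24.9% of all genes). The only gene without H3K4me3 was Bmp5, a BMP ligand. The H3K4me3 peak covered the annotated first base in 39 genes (61.1% of all genes). An ATAC-seq peak covered it in 37 genes (62.5% of all genes), the exceptions being Lefty2, Id2 and Id3.

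**Figure D1:**
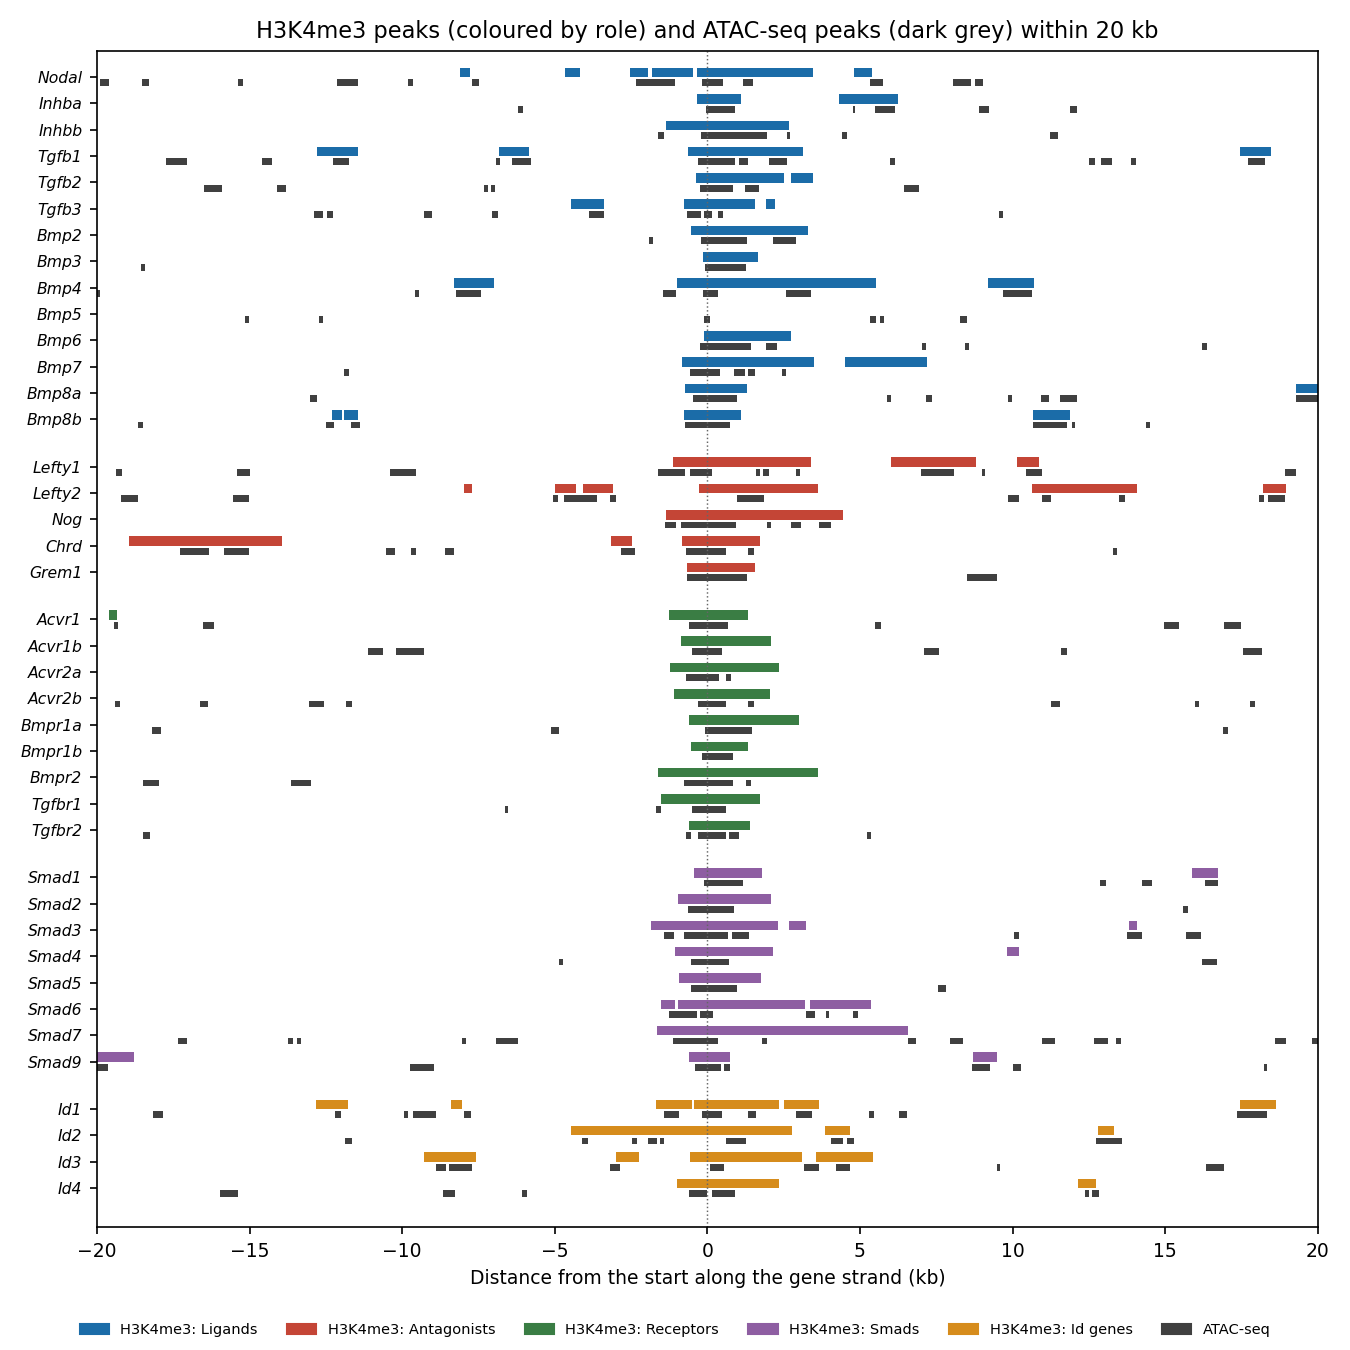
Map of every H3K4me3 peak (coloured by role) and ATAC-seq peak (dark grey) within 20 Kb of the starts of the 40 genes; the x axis gives the distance from the start along the gene strand in Kb. A coloured bar crosses the dotted start line in 39 genes, all but Bmp5, and bars away from the start are frequent at the Id genes and sparse at the receptors.

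The roles differed in the strength of the mark. Fold enrichment is the signal value deposited for each peak, read by its column position as a ratio over background. The sources used here do not name the peak caller. The strongest peak within 2 Kb of a start was taken for each gene. The median was 45.8 for the 9 receptors (range 26.7 to 50.9), 31.0 for the 8 Smads (22.6 to 57.1), 24.3 for the 13 marked ligands (14.0 to 48.2), 22.5 for the 4 Id genes (19.6 to 25.6) and 17.4 for the 5 antagonists (14.3 to 36.0). Over all 14576 marked protein-coding genes the median was 30.5, with quartiles of 20.2 and 40.1, and over the 39 pathway genes it was 25.6. A value of at least 30 was reached by 17 of the 39 genes, against 51.6% of all marked genes. These 17 were 8 of 9 receptors, 6 of 8 Smads, 2 of 13 ligands, 1 of 5 antagonists and 0 of 4 Id genes. The 9 receptors and 8 Smads listed here thus held 14 of the 17, while ligands, antagonists and Id genes held 3 from 22 marked genes. This did not extend to other receptors of the pathway: of 8 further marked receptors and co-receptors, listed below, 0 reached 30. The 9 receptors and the Id genes did not overlap in fold enrichment, but ligands and antagonists each spanned values below and above the median of all genes.

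**Figure D2:**
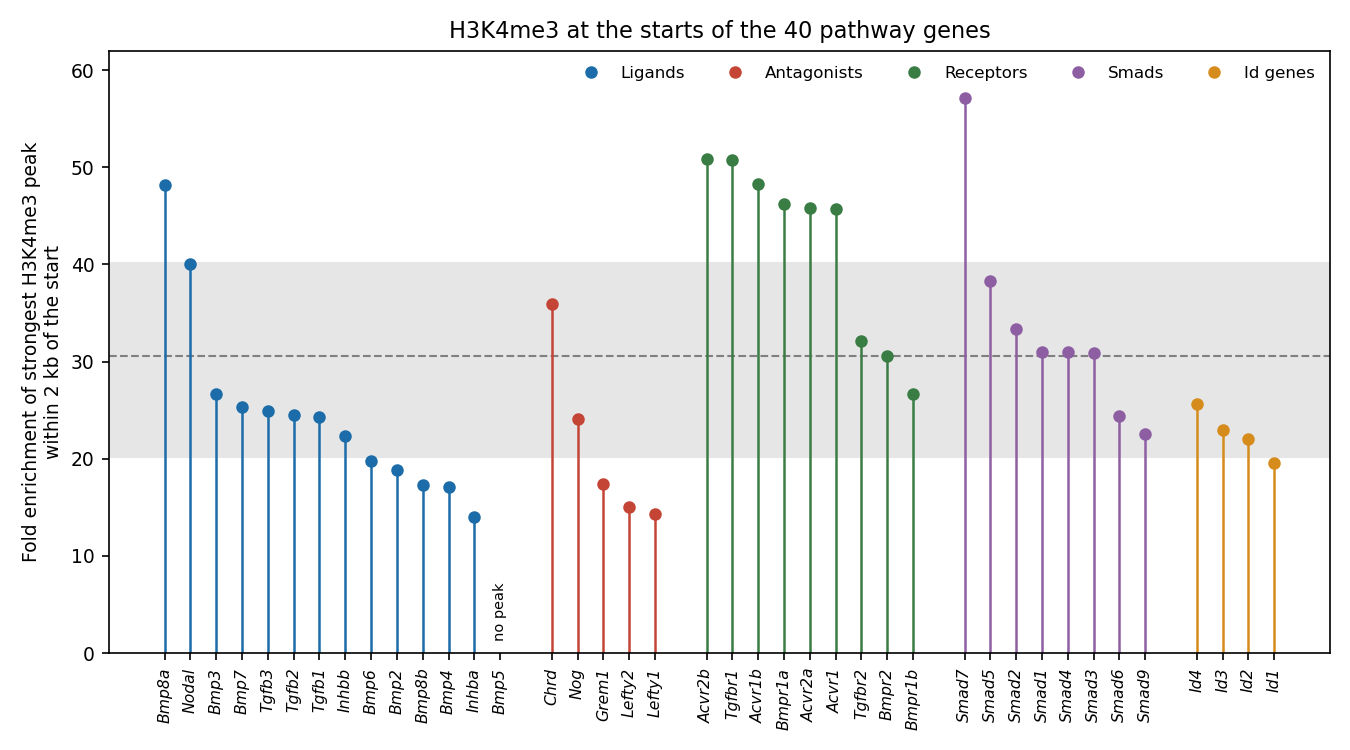
Fold enrichment of the strongest H3K4me3 peak within 2 Kb of the start (y axis, ratio) for each of the 40 genes, grouped by role and sorted within it; the dashed line and grey band mark the median (30.5) and quartiles (20.2 to 40.1) of all marked protein-coding genes. Of the receptors only Bmpr1b, at 26.7, lies below 30, while all 4 Id genes do, and Bmp5 has no peak.

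Nodal, the ligand that patterns the early embryo, combined a strong start peak with a crowded surrounding. It lies on chromosome 10, with its start at position 61417972 on the plus strand. Its start peak spanned -326 to 3463 bp, with a fold enrichment of 40.02 that was higher than in 74.8% of marked genes. A further 2 H3K4me3 peaks lay within 2 Kb upstream, with fold enrichments of 7.81 and 4.31, so the gene had 3 such peaks where more than 1 was found at 4 of the 40 genes and at 8.21% of all genes. The other genes with more than 1 were Tgfb3, Smad6 and Id1. Within 20 Kb Nodal had 12 ATAC-seq peaks, and 6 of these lay from -19889 to -7483 bp in sequence between genes. An ATAC-seq peak of 315 bp at 1179 to 1493 bp lay in the first intron, inside the start H3K4me3 peak.

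That intronic peak held a pair of matches to AATNNACA, a motif of Foxh1, the forkhead factor that binds DNA beside Smad2. Pairs on 1 strand within 1 ATAC-seq peak were also found upstream of both Lefty genes. The 3 stretches shown were chosen by gene name, and in each the matches lie within 100 bases of each other. The matches are in capitals and N stands for any base. The sequences are those of the GRCm38.p6 reference, the same build as mm10, from the C57BL/6J strain and not from the alleles of the F123 cross. They are 200 bases each, read along the strand that carries the motif: Nodal at chr10:61419160-61419359, plus strand, Lefty1 at chr1:180924749-180924948, minus strand, and Lefty2 at chr1:180888838-180889037, plus strand. None overlapped an annotated exon.
Nodal: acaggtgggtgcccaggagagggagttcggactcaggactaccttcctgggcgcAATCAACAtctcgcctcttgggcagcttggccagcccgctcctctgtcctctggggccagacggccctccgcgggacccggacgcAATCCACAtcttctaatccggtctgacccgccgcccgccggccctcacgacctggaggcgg
Lefty1: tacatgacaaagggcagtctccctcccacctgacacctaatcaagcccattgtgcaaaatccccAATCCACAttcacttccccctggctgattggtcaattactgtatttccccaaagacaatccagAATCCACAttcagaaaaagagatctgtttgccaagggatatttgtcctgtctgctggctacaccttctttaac
Lefty2: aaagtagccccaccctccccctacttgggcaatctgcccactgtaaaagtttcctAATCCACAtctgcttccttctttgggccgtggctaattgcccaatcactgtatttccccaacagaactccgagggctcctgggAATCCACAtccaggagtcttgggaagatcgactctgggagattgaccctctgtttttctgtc
The first bases of the matches were 85 bases apart at Nodal, 63 at Lefty1 and 83 at Lefty2. At Lefty1 and Lefty2 both matches read AATCCACA, as did the second at Nodal. Beyond these, Bmp4 and Grem1 had an ATAC-seq peak with 2 matches, on opposite strands at Bmp4 and on the same strand but 972 bases apart at Grem1, and these are not shown. Such peaks with 2 or more matches on either strand were 5 of the 253 ATAC-seq peaks within 20 Kb of the 40 genes (1.98%) and 2376 of all 178722 ATAC-seq peaks on chromosomes 1 to 19, X and Y (1.33%). These counts set no limit on spacing, and pairs on 1 strand within 100 bases were not counted over all peaks. At least 1 match was found in 29 of the 253 peaks (11.5%) and in 12.0% of all peaks. The median peak was wider near these genes, at 322 bp against 261 bp. Within the 300 bases around the middle of each peak, where the lengths are equal, 22 of the 253 (8.70%) and 12.9% of all peaks held a match.

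Among the activin subunits, Inhbb had a start peak with a fold enrichment of 22.3 and a width of 4041 bp, and Inhba had the weakest of the marked ligands, at 14.0 and 1423 bp. Inhba had a second H3K4me3 peak from 4316 to 6260 bp in an intron, with a fold enrichment of 14.5, near another annotated coding start at 2624 bp. Both Inhba peaks were thus of like strength. The 3 TGF-β ligands lay close together, with 24.3 for Tgfb1, 24.5 for Tgfb2 and 25.0 for Tgfb3. Tgfb1 had 13 ATAC-seq peaks within 20 Kb, more than 96.7% of all genes. Its strongest H3K4me3 peak within that distance, at 29.8, was not its own but lay from -6835 to -5828 bp at the start of B9d2.

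Among the BMP ligands, Bmp8a, expressed in the germline, had the highest value of the ligands, with 48.2 and a peak of 2016 bp. Its close copy Bmp8b had 17.3 and 1875 bp. How reads that map to both copies were treated is not given in the sources used here, so the difference between Bmp8a and Bmp8b is uncertain. Bmp3 had 26.7, Bmp7 25.3, Bmp6 19.8 and Bmp2 18.9, with widths of 1783, 4327, 2859 and 3838 bp. All of these lay below the median of 30.5 over all marked genes except Bmp8a.

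Bmp4, the BMP that acts with LIF in mESC, had a wide and weak start peak. It spanned -1009 to 5515 bp on chromosome 14, 6525 bp in all and wider than the peaks of 99.3% of marked genes, at a fold enrichment of 17.1. The summit was not at the start but 3084 bp downstream of it, and another annotated gene, Gm15222, also starts within 2 Kb of the peak. The peak held 2 ATAC-seq peaks, and flanking H3K4me3 peaks of 11.4 and 10.8 lay downstream, within 2 Kb of the start of Gm15217, and upstream between genes. Which transcript each stretch of the mark belongs to cannot be told apart from the peak list.

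Bmp5 had 0 H3K4me3 peaks and 6 ATAC-seq peaks within 20 Kb. A narrow ATAC-seq peak of 180 bp, from -93 to 86 bp, nonetheless covered its start on chromosome 9 at position 75775364. The other 5 were 129 to 222 bp wide, below the median of 261 bp over the list. Its start was also the poorest in CpG dinucleotides, described below, and the 250 bases before it are shown beside those of Acvr2a, a type II activin receptor with the richest start of the 40. CpG dinucleotides are in capitals, and the stretches are chr9:75775114-75775363, plus strand, and chr2:48813859-48814108, plus strand, from the same reference.
Bmp5: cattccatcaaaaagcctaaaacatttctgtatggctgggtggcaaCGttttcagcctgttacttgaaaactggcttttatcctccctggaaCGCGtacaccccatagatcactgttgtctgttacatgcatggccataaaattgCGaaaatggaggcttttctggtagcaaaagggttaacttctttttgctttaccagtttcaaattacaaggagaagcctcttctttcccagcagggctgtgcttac
Acvr2a: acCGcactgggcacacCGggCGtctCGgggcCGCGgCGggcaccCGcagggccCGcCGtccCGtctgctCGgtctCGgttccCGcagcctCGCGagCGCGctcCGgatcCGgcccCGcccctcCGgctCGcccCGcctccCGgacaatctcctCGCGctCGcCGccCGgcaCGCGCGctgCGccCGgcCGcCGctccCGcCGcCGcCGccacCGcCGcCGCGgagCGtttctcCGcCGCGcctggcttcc
They hold 4 CpG at Bmp5 and 49 at Acvr2a.

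The antagonists are secreted proteins that block ligands. Lefty1 and Lefty2, which inhibit Nodal and start at positions 180935022 and 180893108 on the plus strand of chromosome 1, had the weakest start peaks of the antagonists, at 14.3 and 15.1, with widths of 4511 and 3907 bp. They are near-identical copies, so reads that map to both could have been split or dropped and their values are uncertain. Within 20 Kb of Lefty1 a stronger H3K4me3 peak, at 23.5, lay at the start of the neighbouring gene Tmem63a. Upstream of Lefty2, the H3K4me3 peaks from -4998 to -4312 bp and from -4073 to -3101 bp had fold enrichments of 4.09 and 4.54. Both overlapped the ATAC-seq peak that held the pair of Foxh1 matches. The matches themselves, at -4212 and -4129 bp, lay in the gap between these H3K4me3 peaks. At Lefty1 the ATAC-seq peak with the pair, from -10409 to -9561 bp, overlapped no H3K4me3 peak. Lefty2 had no ATAC-seq peak on its start, and the nearest lay from 981 to 1859 bp downstream.

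The BMP antagonist Nog had a fold enrichment of 24.1 over 5781 bp, wider than 98.6% of marked genes, with 5 ATAC-seq peaks inside. Chrd had the strongest mark of the antagonists at 36.0, on a peak that also covered the start of the coding gene Thpo on the other strand, 1384 bp away. To which of both genes that signal belongs cannot be told apart. Grem1 had 17.4 over 2235 bp and the fewest ATAC-seq peaks of the antagonists within 20 Kb, 2 against 5 for Nog, 9 for Chrd, 11 for Lefty2 and 12 for Lefty1. Its peaks were wide, at 1983 and 977 bp, so that 2960 bp were open at Grem1 and 3013 bp at Nog.

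The receptors had the strongest marks as a group. Among type II receptors the values were 50.9 for Acvr2b, 45.8 for Acvr2a, 32.2 for Tgfbr2 and 30.5 for Bmpr2. Among type I receptors they were 50.7 for Tgfbr1, 48.3 for Acvr1b, 46.3 for Bmpr1a, 45.7 for Acvr1 and 26.7 for Bmpr1b. The values of 6 receptors lay above 45, and both types held high and lower values. Acvr2b, which starts at position 119402118 on chromosome 9, ranked 2 among the 39 marked genes and exceeded 92.7% of all marked genes. Acvr1 shares its start region with the coding gene Upp2, which starts at -141 bp from it on the other strand, so its value is uncertain. Bmpr2 had the widest receptor peak, 5250 bp, and was the only receptor of at least 4000 bp.

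Of the Smads, the inhibitory Smad7, which feeds back on the receptors, had the strongest mark of all 40 genes at 57.1 (chromosome 18, start at 75367529 on the plus strand), higher than in 97.1% of marked genes. Its peak was also the widest, 8212 bp from -1638 to 6573 bp, wider than in 99.8% of marked genes. It covered a further coding start of Smad7 at 2447 bp and the start of the noncoding Gm20544 at -441 bp. The other inhibitory Smad, Smad6, had 24.4 over 4164 bp. The Smads of the Nodal and TGF-β branch had 33.4 at Smad2 and 30.8 at Smad3, and the common Smad4 had 31.0. In the BMP branch Smad5 had 38.3, Smad1 31.0 and Smad9 22.6. Smad9 had the narrowest start peak of the 39, at 1337 bp.

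The Id genes, which code for helix-loop-helix proteins that block other such factors and are induced by BMP, formed a tight range: 25.6 at Id4, 22.9 at Id3, 22.1 at Id2 and 19.6 at Id1. They start on chromosome 2 at 152736251 (Id1, plus strand), chromosome 12 at 25097140 (Id2, minus strand), chromosome 4 at 136143497 (Id3, plus strand) and chromosome 13 at 48261228 (Id4, plus strand). H3K4me3 was also called away from the starts. Each Id gene had at least 1 H3K4me3 peak 2 to 20 Kb from the start, as did 48% of all genes. There were 4 at Id1, 3 at Id3, 2 at Id2 and 1 at Id4, and 8 of these 10 peaks lay between genes. Of the 10, 3 lay within 2 Kb of the start of another gene: Cox4i2 near Id1, Gm26001 near Id3 and A330048O09Rik near Id4. At Id4 that was the only peak away from the start. The start peak of Id2 ran further upstream (4473 bp) than downstream (2778 bp), unlike those of the other 38 marked genes, and at 7252 bp it was wider than in 99.6% of marked genes. It held 5 ATAC-seq peaks, of which none covered the start. At Id3 an upstream peak from -9296 to -7579 bp reached a fold enrichment of 17.4, within 2 Kb of the start of Gm26001, and one from 3563 to 5417 bp beyond the gene reached 11.1.

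The flanks of 3 of the 4 Id genes held the BMP response element, the composite of a GGCGCC box and a GTCT box 5 bases apart to which Smad1 or Smad5 and Smad4 bind. It was searched on both strands over the whole extent of each ATAC-seq peak. The element was found in 6 of the 253 peaks within 20 Kb of the pathway genes (2.37%) and in 116 of all 178722 peaks (0.0649%). Of the 6, 2 lay at Id2 (at 4089 and -1721 bp), 2 at Id3 (at -2950 and 4491 bp), 1 at Id1 (at 3227 bp) and 1 at Grem1 (at 910 bp). Within the 300 bases around the middle of each peak, 4 of the 253 (1.58%) and 63 of all peaks (0.0353%) held it. None was found at Id4. Both the motif and the Id genes were picked for a known tie to BMP signals. The higher share near these genes is therefore not an independent finding. The 100 bases around each are shown because they let the element be compared between genes, with both boxes in capitals, on the strand on which the boxes read in this order: Id1 at chr2:152739431-152739530, plus strand; Id2 downstream at chr12:25092999-25093098, minus strand; Id2 upstream at chr12:25098809-25098908, minus strand; Id3 upstream at chr4:136140500-136140599, plus strand; Id3 downstream at chr4:136147941-136148040, plus strand; Grem1 at chr2:113757689-113757788, plus strand.
Id1: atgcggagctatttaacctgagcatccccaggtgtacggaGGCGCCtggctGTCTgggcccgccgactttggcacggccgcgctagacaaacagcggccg
Id2 downstream: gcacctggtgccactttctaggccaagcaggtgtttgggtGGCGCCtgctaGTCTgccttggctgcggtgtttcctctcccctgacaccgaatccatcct
Id2 upstream: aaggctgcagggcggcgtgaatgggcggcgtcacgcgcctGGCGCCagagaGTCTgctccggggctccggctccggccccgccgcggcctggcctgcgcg
Id3 upstream: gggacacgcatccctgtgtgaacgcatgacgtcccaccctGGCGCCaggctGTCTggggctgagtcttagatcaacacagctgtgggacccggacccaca
Id3 downstream: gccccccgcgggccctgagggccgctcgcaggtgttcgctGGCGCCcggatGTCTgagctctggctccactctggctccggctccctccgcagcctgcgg
Grem1: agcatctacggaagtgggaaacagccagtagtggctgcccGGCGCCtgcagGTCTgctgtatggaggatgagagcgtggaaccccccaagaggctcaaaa
In all 6 the GTCT box was followed by G, so that each also matches the Smad element GTCTG, and in 4 of the 5 Id elements the base before GGCGCC was T. Every Id element lay in a peak that overlapped H3K4me3. The element was absent from the 250 bases before the starts of all 40 genes, and 11 of 21938 protein-coding genes (0.0501%) held it there. A match is a description of these letters in the reference and not a binding site, and no match says nothing about a factor.

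Single boxes were more common in the 250 bases before the starts. GGCGCC was present before 9 of the 40 starts (22.5%) and 10.9% of all starts. This box contains a CpG, and the median CpG ratio, described below, was 0.812 over the 40 genes and 0.553 over all genes. Shares at equal base composition were not computed. GTCTG was present before 18 (45%) and 41.0%, TATAAA before 8 (20%) and 11.5%, and AATNNACA before 1 (2.5%), that of Smad2, and 10.2%. The 8 genes with TATAAA were Inhba, Tgfb2, Tgfb3, Bmp3, Lefty1, Lefty2, Bmpr1a and Id1, of which 7 are ligands, antagonists or Id genes and 1 is a receptor.

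The start peaks of the pathway genes were wide. The median width was 3202 bp over the 39 genes and 2158 bp over all marked genes, and 32 of the 39 exceeded the latter. A width of at least 4000 bp was found in 10 of the 39 against 7.68% of all marked genes. These were Inhbb, Bmp4, Bmp7, Lefty1, Nog, Bmpr2, Smad3, Smad6, Smad7 and Id2, so every role was represented. Width and strength did not go together by role: the median width was 3907 bp in antagonists, 3513 bp in Id genes, 3146 bp in receptors, 3127 bp in Smads and 2894 bp in ligands. Much of the width lay downstream of the start, where the peaks extended by a median of 2341 bp against 1399 bp over all marked genes. Lefty1, Bmp4, Nog and Id2 were wide at a low fold enrichment, and Bmp8a was narrow at a high one.

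**Figure D3:**
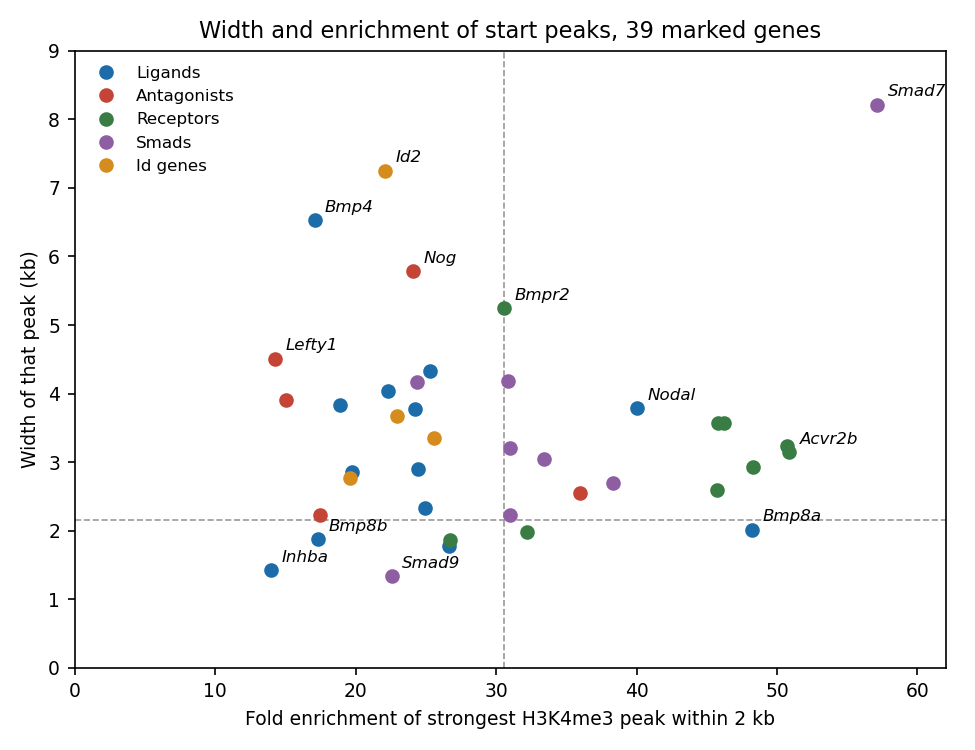
Width in Kb (y axis) against fold enrichment (x axis, ratio) of the strongest H3K4me3 peak within 2 Kb of the start, 1 point for each of the 39 marked genes and coloured by role; dashed lines mark the medians of all marked protein-coding genes (30.5 and 2158 bp). Smad7 is highest on both axes, while Id2 and Bmp4 are wide at fold enrichments of 22.1 and 17.1.

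Open chromatin around the starts also differed by role, in another order. Within 20 Kb to either side of the start the median number of ATAC-seq peaks was 9 for antagonists, 8.5 for Id genes, 6.5 for ligands, 4.5 for Smads and 4 for receptors, beside 6 for the 40 genes and 5 for all protein-coding genes. At least 10 peaks were found at 6 of the 40 genes and at 12.6% of all genes. These were Smad7 with 14, Tgfb1 with 13, Nodal, Lefty1 and Id1 with 12 each, and Lefty2 with 11. Bmpr1b, a type I BMP receptor, had 1, the fewest. The ranges of most roles overlapped: receptors ran from 1 to 9 and Id genes from 7 to 12.

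**Figure D4:**
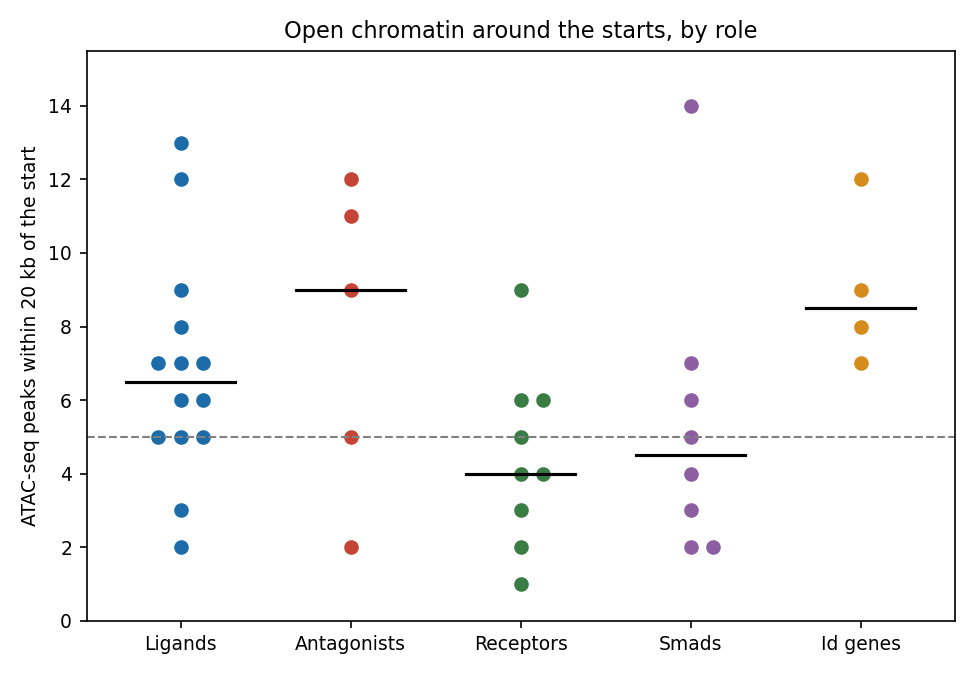
Number of ATAC-seq peaks within 20 Kb of the start (y axis) for each of the 40 genes by role (x axis); black bars are the medians by role and the dashed line is the median of 5 over all protein-coding genes. Id genes all have 7 or more, and all receptors have 9 or fewer.

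H3K4me3 away from the start was scarce at the receptors too. A peak 2 to 20 Kb from the start was present at 22 of the 40 genes and at 48% of all genes: 4 of 4 Id genes, 3 of 5 antagonists, 9 of 14 ligands, 5 of 8 Smads and 1 of 9 receptors. The 40 genes had 43 such peaks. Their median fold enrichment was 5.57, and 15 of them lay within 2 Kb of the start of another gene. Of the 43, 16 were between genes, 14 in another gene and 13 in the gene itself, and 35 overlapped an ATAC-seq peak. Of the 179 ATAC-seq peaks away from the start, 58 overlapped an H3K4me3 peak, against 70 of the 74 near it. These places and overlaps were not counted over all peaks, so whether they are particular to these genes is not known. Genes whose strongest H3K4me3 peak within 20 Kb was not at the start included Inhba, Tgfb1 and Lefty1, described above, and Smad9, whose neighbours Exosc8 and Alg5 share a peak of 52.1 from -21686 to -18791 bp against its own 22.6.

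GENCODE gives 15 further coding transcript starts more than 2 Kb downstream of the first, in 10 of the genes. Of these, 4 had an H3K4me3 peak within 2 Kb, where 39.2% of such starts of all protein-coding genes had one, and 6 an ATAC-seq peak, where the share was 54.8%. One was the start of Smad7 inside its wide peak, and another that of Inhba. The third, of Acvr1 at 50885 bp, had a fold enrichment of 2.82, and the fourth, of Bmpr1b at 237902 bp, one of 4.09, both far below the first starts of these genes. Including Upp2 and Thpo, 9 of the 40 genes had the start of another gene within 2 Kb, which was noncoding at Tgfb2, Tgfb3, Nog, Bmpr1a, Smad5, Smad7 and Id4. How many of all protein-coding genes have such a neighbour was not counted.

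CpG content of the starts was laid beside the mark. The CpG observed to expected ratio in the 1 Kb centred on the start had a median of 0.812 over the 40 genes, 0.553 over all protein-coding genes and 0.708 over all marked ones. It was 0.919 for Smads, 0.895 for receptors, 0.672 for antagonists, 0.645 for ligands and 0.635 for Id genes. The roles with strong marks were thus those with CpG-rich starts. The lowest ratios were 0.263 at Bmp5, 0.270 at Lefty1 and 0.279 at Lefty2, and the highest was 1.15 at Acvr2a. Across the 39 marked genes the Spearman correlation between this ratio and fold enrichment was 0.447, and across all 14576 marked genes it was 0.583. These are correlations across genes of the same libraries, and genes are not independent replicates. Nodal, at a ratio of 0.472 and a fold enrichment of 40.02, and Bmp2, at 1.08 and 18.9, lay away from this trend. Whether CpG content plays a part in the differences between roles was not tested.

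**Figure D5:**
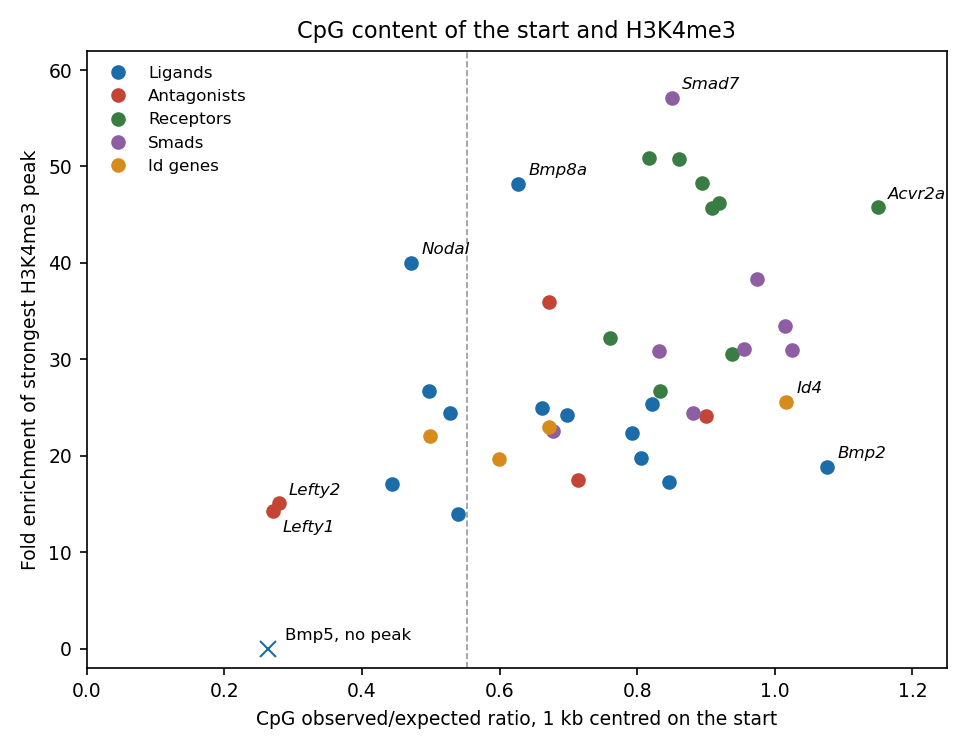
Fold enrichment of the strongest H3K4me3 peak (y axis, ratio) against the CpG observed to expected ratio in 1 Kb centred on the start (x axis) for the 40 genes, coloured by role; the dashed line is the median ratio of all protein-coding genes, 0.553, and Bmp5, which has no peak, is drawn as a cross at 0. Receptors and Smads all lie to the right of the line, and Bmp5, Lefty1 and Lefty2 lie furthest to the left.

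Other genes of the pathway were counted in lists by role. Of 69 such genes, 60 had an H3K4me3 peak within 2 Kb of the start, 64 an ATAC-seq peak and 58 both. The shares over all protein-coding genes were 66.4%, 74.6% and 65.9%, and the counts by list below are to be read beside them. H3K4me3 was present at 12 of 17 further ligands, 8 of 9 receptors and co-receptors, 11 of 13 antagonists, 9 of 9 processing proteins, 10 of 11 Smad partners and regulators and 10 of 10 target genes. The Smad partners and regulators, nuclear or cytoplasmic proteins that act on Smads, had the highest median fold enrichment of these lists at 41.9, with 50.5 at Trim33 and 43.8 at Foxh1. The median of the further receptors and co-receptors was lower than that of the 9 receptors above, at 22.0, with 26.4 at Tdgf1, the Nodal co-receptor, 20.9 at Acvr1c and 10.5 at Acvrl1. The target genes had a median of 19.9, with 31.8 at Eomes, 26.7 at Gsc and 22.3 at Mixl1. Among the further ligands, Mstn, Bmp10 and Bmp15 had neither kind of peak near the start. Gdf9, on the same list, had the highest fold enrichment of all these lists, at 64.0, with 2 H3K4me3 peaks within 2 Kb, and Gdf10 had 36.4. Starts of other genes within 2 Kb were not looked up for these lists, so a value may belong to a neighbour.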

How the data were processed

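H3K4me3 ChIP-seq and ATAC-seq of F123 cells, 2 replicates each, entered as 1 deposited peak list per assay. For H3K4me3 the authors ran the ENCODE uniform pipeline for histone marks with its default parameters. Its aligner, peak caller and threshold are not given in the sources used here. By their order, the deposited columns were read as positions, a display score (not used), a fold enrichment (ratio), −log10 of p (not used) and of q, and the summit. That reading of the fold enrichment and of q is an assumption. For ATAC-seq the authors aligned reads with bowtie 1.1.2, cleaned them with samtools, called peaks with MACS2 2.1.1.20160309 and compared replicates with bedtools 2.27.1 (submitters' processing notes). They moved read ends 4 bp for the transposase, and deposited positions of pooled peaks found in both replicates. The lenient p threshold of that calling lets weak peaks into the list, and neither list gives depth. The build is mm10 per the labels.

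From these lists, a start was the first base of the GENCODE M21 gene record, and a peak counted when it shared at least 1 bp with the window of 2 Kb or 20 Kb to either side. The strongest peak within 2 Kb was the one with the highest fold enrichment. Positions are 1-based and signed along the gene strand, and the place of a peak is that of its middle. CpG ratios and motifs were read from the RefSeq GRCm38.p6 genome. The values of 4000 bp, 30 and 10 peaks are round settings. Python 3.11.15, numpy 2.4.6, pandas 2.3.3 and pysam 0.24.0 were used, with matplotlib 3.10.9 for plots. The overlap step was tested on simulated data and recovered the planted state of 400 of 400 genes. All 40 genes are named. Those given in full are, in each role, the ones with the strongest and weakest start peak, those without a kind of peak, Nodal, Lefty1, Lefty2, Bmp4 and the Id genes. The genes were listed by name, without a rule on measured values, but the list, like the further gene lists, motifs and settings, was drawn up with earlier results of these data known. Further genes named beside the lists were chosen after their values were seen. Alternatives were windows of 1 and 5 Kb or 10 and 50 Kb, any coding transcript start, peak midpoints, a −log10 q of at least 5, the nearest in place of the strongest peak, the widest 50% of ATAC-seq peaks, and ATAC-seq peaks away from coding starts.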

Additional observations from a re-analysis of the deposited data

How the results depend on the processing

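Each list stands for both replicates, so leaving out a replicate was not possible and no error between replicates can be given. No paired analysis was possible because the deposited lists hold no per-replicate values and no test was run. The counts of marked and open genes changed little: H3K4me3 was found at 37 genes by peak midpoint and at 39 under the other alternatives, and ATAC-seq at 39 with the widest 50% of peaks and at 40 under the others. Medians of fold enrichment by role were the same with a −log10 q of at least 5 and with the nearest peak. Neither alternative could change them. The lowest −log10 q of a start peak was 120.9, at Inhba, and the strongest peak covered the start in all 39 marked genes, so it was also the nearest. The share of all protein-coding genes with H3K4me3, 66.4% (95% Wilson interval 65.8% to 67.1%, counting error only), became 65.2% within 1 Kb, 69.3% within 5 Kb, 69.1% with any coding transcript start and 65.1% by midpoint. The median of 6 ATAC-seq peaks became 4 with the widest 50%, 4 within 10 Kb, 13 within 50 Kb and 4 without peaks within 2 Kb of a coding start. The median H3K4me3 length within 20 Kb, 3682.5 bp, became 3469 bp within 10 Kb and 5230.5 bp within 50 Kb. Windows of another size hold other peaks by construction. The search of whole ATAC-seq peaks for motifs was added after seeing the data: it gave 6 peaks with the BMP response element where 300 bases gave 4, and 29 with the Foxh1 motif where 300 bases gave 22. Since the depth is unknown, a gene without a peak is one where none was called.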
